A study of Mus musculus with 9 samples.

Results

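Retinal ganglion cells were followed through 10 of their marker genes, Pou4f1, Pou4f2, Pou4f3, Isl2, Rbpms, Sncg, Slc17a6, Nefl, Nefm and Nefh, chosen by gene symbol out of the 54532 genes in the count table. All 10 were among the 17540 genes that passed the filter on low counts. Retinal RNA was sequenced at P17 from 9 wild-type C57BL/6 mice, 3 in each of 3 groups, to ask how the ischemic retina differs from the normal one and what a HIF inhibitor changes in it. Control mice were kept in room air. OIR mice went through oxygen-induced retinopathy, in which newborn mice are held in high oxygen until P12, lose the vessels of the central retina, and then become hypoxic on return to room air. Treated OIR mice went through the same exposure and received a single intraocular injection of a drug candidate that inhibits hypoxia-inducible factors (HIFs) at P12, where the OIR group received the DMSO vehicle, and DMSO is also named for the control group. A protocol text shared by all samples, controls included, names only the inhibitor, and the groups follow each sample's own treatment label. The dose is 70 ng in the labels of the treated mice and a concentration of the same number per µl elsewhere in the labels. Each mouse is named here by its group and the number in its label, and the numbers do not link mice of different groups.

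Ganglion cells are the output neurons of the retina: they lie in its innermost layer, take signals from bipolar and amacrine cells, and send long axons through the optic nerve. Their identity is set by a cascade of transcription factors in which Pou4f2 (Brn3b) and Isl1 act downstream of Atoh7, and their axons are filled with neurofilaments, built from light, medium and heavy chains. Pou4f1 (Brn3a) and Rbpms are among the markers used to count these cells, whereas neurofilament transcripts are also made by other neurons with long processes, such as horizontal cells. In RNA of a whole tissue, fewer ganglion cells and less of a transcript in each ganglion cell cannot be told apart.

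Promoters of 5 of the 10 genes (Pou4f1, Pou4f2, Isl2, Sncg and Slc17a6, the last with 2 start sites) were taken from the RefSeq promoter sequences of mouse build GRCm38.p6. 4 of these, from genes that were low together in the same mice, are printed here 5′ to 3′ on the strand of the gene as the 250 bases before the start site, with matches to the hypoxia response element core (GCGTG or ACGTG on either strand) in capitals.
Pou4f1 (chr14:104468000-104468249, minus strand): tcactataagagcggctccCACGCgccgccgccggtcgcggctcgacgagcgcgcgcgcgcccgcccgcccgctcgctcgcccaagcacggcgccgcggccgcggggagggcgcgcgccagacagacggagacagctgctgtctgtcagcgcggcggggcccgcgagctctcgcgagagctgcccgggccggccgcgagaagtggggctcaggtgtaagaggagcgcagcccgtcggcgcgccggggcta
Pou4f2 (chr8:78436648-78436897, minus strand): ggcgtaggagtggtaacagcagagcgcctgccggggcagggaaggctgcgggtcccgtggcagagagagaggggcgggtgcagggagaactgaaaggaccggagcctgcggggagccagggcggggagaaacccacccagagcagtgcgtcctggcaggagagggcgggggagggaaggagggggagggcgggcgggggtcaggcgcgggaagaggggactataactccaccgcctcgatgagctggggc
Isl2 (chr9:55540899-55541148, plus strand): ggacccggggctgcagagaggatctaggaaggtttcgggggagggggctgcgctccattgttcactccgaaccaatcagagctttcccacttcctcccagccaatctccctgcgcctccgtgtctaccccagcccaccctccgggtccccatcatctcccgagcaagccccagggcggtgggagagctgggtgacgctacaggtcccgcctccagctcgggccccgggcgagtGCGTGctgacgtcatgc
Sncg (chr14:34374670-34374919, minus strand): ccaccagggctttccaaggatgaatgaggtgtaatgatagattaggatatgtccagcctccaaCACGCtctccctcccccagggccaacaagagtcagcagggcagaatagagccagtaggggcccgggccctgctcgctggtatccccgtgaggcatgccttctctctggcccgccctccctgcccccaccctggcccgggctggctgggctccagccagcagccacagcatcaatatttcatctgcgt
GCGTG was found once in Isl2, on the strand of the gene 17 to 13 bases before the start, and once each on the other strand in Sncg (187 to 183 bases before) and Pou4f1 (231 to 227 bases before). Pou4f2 and both windows of Slc17a6 held neither core. Start sites here are those of RefSeq and can differ from the gene coordinates of the counts. In those coordinates Isl2 spans chr9:55538672-55546180, so its window lies inside the gene, as does the second window of Slc17a6. Sncg spans chr14:34370274-34374789, so part of its window lies inside the gene. Of 32851 promoter windows of the same length, 28.2% held GCGTG, 16.6% ACGTG and 38.6% at least 1 of them, so these matches are common letters and are given as a description of the sequence only. TATAAA, in 12.4% of all windows, was in none of these 6 windows, and ATAATTA, the core of the POU4 consensus and present in 2.5% of all windows, was found once, on the reverse strand 81 to 75 bases before the second start of Slc17a6. The share of G and C was 78.0% in Pou4f1, 70.8% in Pou4f2, 66.8% in Isl2 and 61.6% in Sncg, and 53.2% and 41.2% in the 2 windows of Slc17a6, against a median of 52.4% over all windows.

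Total counts ran from 16028731 to 27213184 per mouse, and the lowest member values, of 3 to 12 counts, carry the widest counting error. A library of the treated group, treated OIR 2, stood apart: 15.8% of its counts came from crystallin genes of the lens, against at most 0.186% in the other 8 mice, and 8 lens markers summed to 100300 CPM there and to between 7.91 and 732 CPM elsewhere. Sex, read from X- and Y-linked transcripts, was mixed, with 1 female mouse among the controls, 1 among the OIR mice and 2 in the treated group. The 10 members together took 0.128%, 0.139% and 0.158% of all counts in control 1, 6 and 7. In OIR 3, 5 and 6 they took 0.0654%, 0.0425% and 0.0160%, and in treated OIR 2, 5 and 10 0.00949%, 0.104% and 0.110%.

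In the control retina, levels per kb of transcript spanned from Isl2 to Sncg. CPM (counts scaled to a common library size, after TMM) per kb averaged 185 ± 34.5 (SD, n = 3) for Sncg and 162 ± 33.0 for Nefl. These means did not differ beyond the spread between mice, but Sncg was above Nefl within each control mouse. Nefh (52.8 ± 3.63) and Nefm (48.6 ± 9.38) followed, also within their spread of each other, and then Slc17a6 (16.03 ± 3.78), Pou4f1 (13.1 ± 3.28) and Rbpms (8.03 ± 1.12). Lowest were Pou4f2 (5.72 ± 1.24), Pou4f3 (4.99 ± 1.19) and Isl2 (4.95 ± 1.39), whose ranges overlapped, with Pou4f2 above Pou4f3 within each mouse. All 10 labels of ganglion cells were thus present in each control retina, the structural axon genes above the transcription factors.

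The transcription factors were low in every OIR mouse and very unequal among them. Pou4f1, a POU-domain factor kept on in most mature ganglion cells, stood at 49.5, 55.2 and 78.5 CPM in control 1, 6 and 7, at 23.3, 9.32 and 2.56 CPM in OIR 3, 5 and 6, and at 0.508, 39.4 and 47.9 CPM in treated OIR 2, 5 and 10. No OIR mouse reached the lowest control, and the treated group split into 1 mouse with almost no Pou4f1 and 2 mice just under the controls. Pou4f2, the related factor that drives ganglion cell differentiation and axon outgrowth, was at 15.6, 16.5 and 22.9 CPM in the controls, 7.49, 3.82 and 0.540 CPM in OIR mice, and 0.254, 12.3 and 11.8 CPM in treated mice. OIR 3 was again the highest and OIR 6 the lowest OIR mouse, with 12 reads in OIR 6 and 4 in treated OIR 2.

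Pou4f3, the third member of this family, which in the retina is made by a subset of ganglion cells, gave 9.64, 10.7 and 15.0 CPM in the controls, 5.56, 2.52 and 0.135 CPM in OIR mice, and 0.317, 7.61 and 7.91 CPM in treated mice. The lowest of these values rests on 3 reads, 1.15% of the control mean with an exact Poisson interval of 0.237 to 3.35%, and the 5 reads of treated OIR 2 give 2.70% with an interval of 0.875 to 6.29%, so the order of these 2 mice is not resolved. Both intervals cover counting error only. Isl2, a LIM-homeodomain factor of ganglion cells that project to the opposite side of the brain, differed from the POU4 genes: it was at 8.52, 9.76 and 14.3 CPM in the controls, at 5.24, 3.22 and 1.44 CPM in OIR mice, and at 1.59, 11.7 and 10.8 CPM in treated mice. Treated OIR 5 and 10 lay inside the control range for Isl2, and OIR 6 and treated OIR 2 kept 13.3% and 14.6% of the control mean, more than for any POU4 gene.

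**Figure D1:**
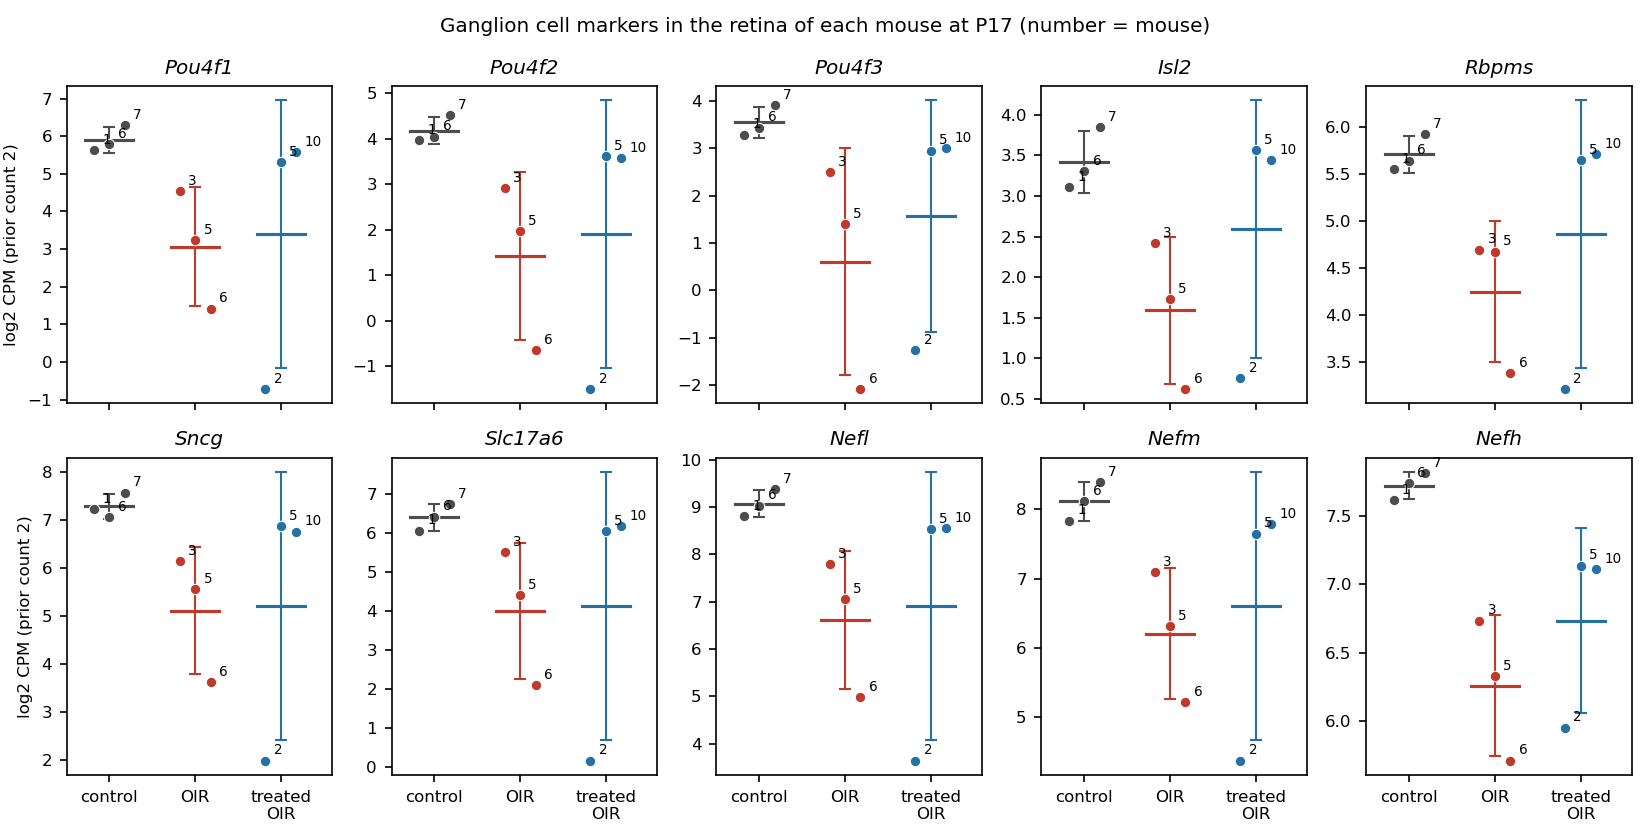
Log2 CPM (prior count 2) of each of the 10 genes in each of the 9 mice, with its own vertical scale per gene; points are mice with their label number, horizontal lines are group means and bars are 1 SD (n = 3). In all 10 panels OIR 3 is the highest and OIR 6 the lowest OIR mouse, every OIR mouse is under every control, and treated OIR 2 lies far from treated OIR 5 and 10.

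Rbpms, Sncg and Slc17a6 were also highest in OIR 3 and lowest in OIR 6 among the OIR mice. Rbpms, an RNA-binding protein that within the retina marks nearly all ganglion cells, was at 47.0, 49.9 and 60.9 CPM in the controls, 25.8, 25.4 and 10.3 CPM in OIR mice, and 9.14, 50.2 and 52.5 CPM in treated mice. With Isl2 it was 1 of the 2 genes for which treated OIR 5 and 10 were both within the control range, and in OIR 6 it still stood at 19.5% of the control mean. Sncg, γ-synuclein, an abundant protein of ganglion cell bodies and axons, was at 149.0, 133.1 and 190.1 CPM in the controls, 70.9, 46.9 and 12.2 CPM in OIR mice, and 3.87, 118 and 108 CPM in treated mice. Slc17a6, the vesicular glutamate transporter VGLUT2 that loads the transmitter of ganglion cells, was at 66.6, 85.7 and 107 CPM in the controls, 45.5, 21.1 and 4.18 CPM in OIR mice, and 1.02, 66.4 and 71.9 CPM in treated mice. Rbpms lies at chr8:33782643-33929863 (minus strand) and Slc17a6 at chr7:51622006-51671119 (plus strand, GRCm38). In treated OIR 2, Slc17a6 was at 1.17% of the control mean, close to Pou4f1 at 0.831% (8 reads, exact Poisson interval 0.359 to 1.64%).

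The neurofilament chains were lower in each OIR mouse as well, but the heavy chain kept more of its level than the light chain. Nefl, the light chain that forms the core of the filament, was at 450, 522 and 668 CPM in the controls, 222, 132 and 31.4 CPM in OIR mice, and 12.4, 372 and 374 CPM in treated mice. Nefm, the medium chain, was at 229, 278 and 337 CPM in the controls, 136, 79.5 and 37.1 CPM in OIR mice, and 20.7, 201 and 221 CPM in treated mice. Nefh, the heavy chain, whose long phosphorylated tail is typical of thick axons, was at 196, 213 and 224 CPM in the controls, 106, 80.1 and 52.3 CPM in OIR mice, and 61.8, 140.4 and 138 CPM in treated mice. The lowest mouse of each of these genes was therefore treated OIR 2 for Nefl and Nefm and OIR 6 for Nefh. Nefl and Nefm lie on opposite strands of chromosome 14 (chr14:68083863-68089095, plus strand, and chr14:68082590-68124846, minus strand, GRCm38) and share 1108 exonic bases, 32.8% of those of Nefl and 19.2% of those of Nefm, so where reads were counted without regard to strand their counts cannot be fully separated. Nefh (chr11:4938754-4948064, minus strand) shares no exonic base with another gene.

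Set against the control mean, OIR 3 kept between 38.2% (Pou4f1) and 52.5% (Slc17a6) of each marker, a narrow band with a median of 47.8%. OIR 5 ranged from 15.3% (Pou4f1) to 48.3% (Rbpms) with a median of 26.3%, and OIR 6 from 1.15% (Pou4f3) to 24.8% (Nefh) with a median of 6.76%. Treated OIR 2 ranged from 0.831% (Pou4f1) to 29.3% (Nefh) with a median of 2.58%. As ratios to the control mean, the markers thus lay closest together in OIR 3 and farthest apart in OIR 6 and treated OIR 2. The lowest values of those 2 mice rest on few reads. In percentage points OIR 5 was the widest of these mice. Treated OIR 5 and 10 had medians of 69.7% and 73.6%, were above all 3 OIR mice for 10 of 10 genes, and were below all 3 controls for 7, the exceptions being Isl2, Rbpms and Slc17a6. Of all genes, with treated OIR 2 left out, 18.1% were separated upward from OIR mice and 16.8% downward from controls.

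**Figure D2:**
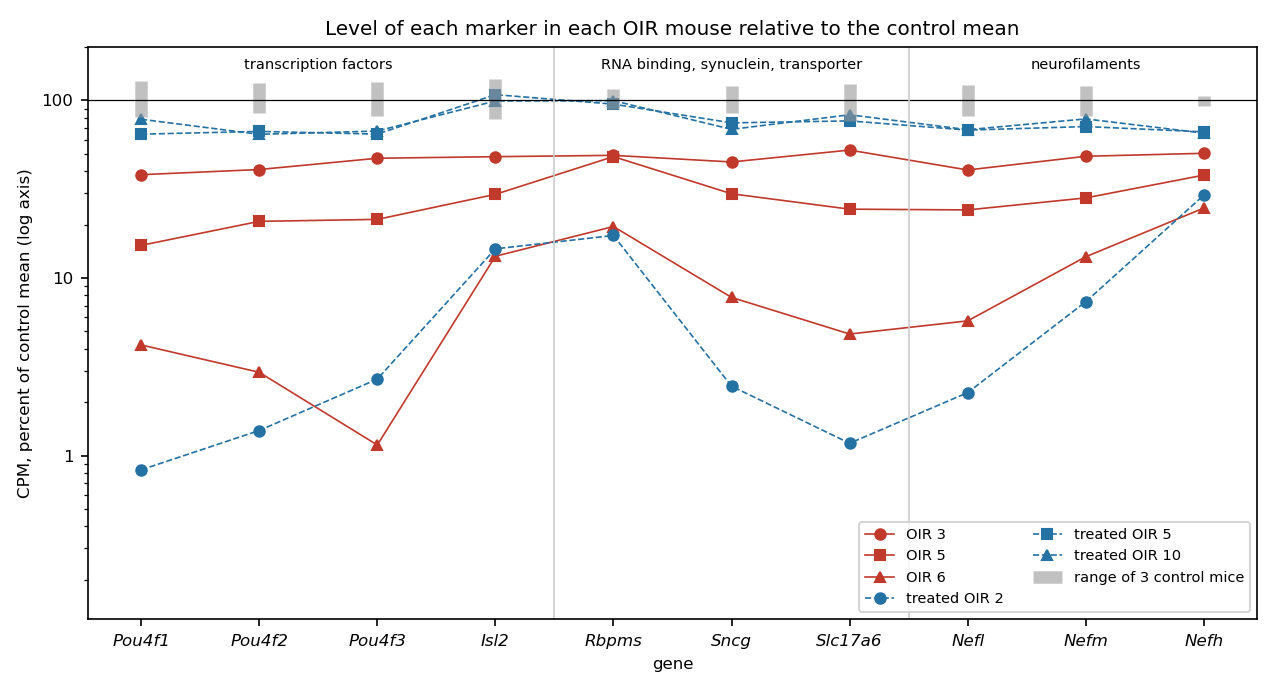
CPM of each gene as a percentage of the control mean (log axis), for the 3 OIR mice (solid red lines) and the 3 treated OIR mice (dashed blue lines), with gray bars for the range of the 3 controls; lines join the genes of 1 mouse. OIR 6 and treated OIR 2 lie between 0.831% and 4.199% at the POU4 genes and rise to 24.8% and 29.3% at Nefh, whereas OIR 3 is nearly level.

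The transcription factors were compared with the neurofilaments within each mouse as the mean log2 CPM of the 4 factors minus that of the 3 chains, relative to the control mean of this difference. Controls 1, 6 and 7 were at -0.05, -0.11 and 0.16. OIR 3 was at -0.07, within the controls, OIR 5 at -0.44 and OIR 6 at -1.43. The factors thus fell short of the mean of the 3 chains in the 2 OIR mice with the least of both. Treated OIR 2 was at -1.29, while treated OIR 5 and 10 were both at 0.13, inside the control range. The group means differed by -0.65 between OIR and control mice (SD 0.70 in OIR mice and 0.14 in controls, n = 3 each), and by -0.94 to -0.25 when 1 mouse was left out. Between treated OIR and control mice they differed by -0.35, with an SD of 0.82 in the treated mice, and by 0.13 without treated OIR 2. Between treated OIR and OIR mice they differed by 0.30, and by -0.09 without OIR 6. These differences were no larger than the spread between mice and carry no test, since the genes were chosen. Nefl alone was -1.28, -2.03 and -4.10 log2 units from its control mean in OIR 3, 5 and 6. The factors were at -1.17, -2.18 and -4.43 in these mice. In treated OIR 2 Nefl was at -5.43, below the factors at -4.94. The gap was therefore mainly against Nefm and Nefh, not Nefl.

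Members of 1 family also parted from each other. Per kb, Nefl over Nefh was 2.72, 2.90 and 3.52 in the controls, 2.47, 1.95 and 0.709 in OIR 3, 5 and 6, and 0.237, 3.13 and 3.20 in treated OIR 2, 5 and 10. All 3 OIR mice were under the lowest control, and treated OIR 5 and 10 were among the controls. Nefm over Nefh was 0.808, 0.901 and 1.04 in the controls and 0.886, 0.685 and 0.490 in the OIR mice, so here OIR 3 lay inside the control range, and it was 0.231, 0.986 and 1.11 in the treated mice. Among the factors, Pou4f2 over Pou4f1 stayed at 0.460, 0.436 and 0.425 in the controls and 0.468, 0.598 and 0.307 in the OIR mice, on either side of the controls. Pou4f1 over Rbpms, the pair of markers used to count ganglion cells, was 1.48, 1.55 and 1.81 in the controls, 1.27, 0.515 and 0.351 in OIR 3, 5 and 6, and 0.0780, 1.10 and 1.28 in treated OIR 2, 5 and 10, below the lowest control in all 6 OIR mice, treated or not.

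**Figure D3:**
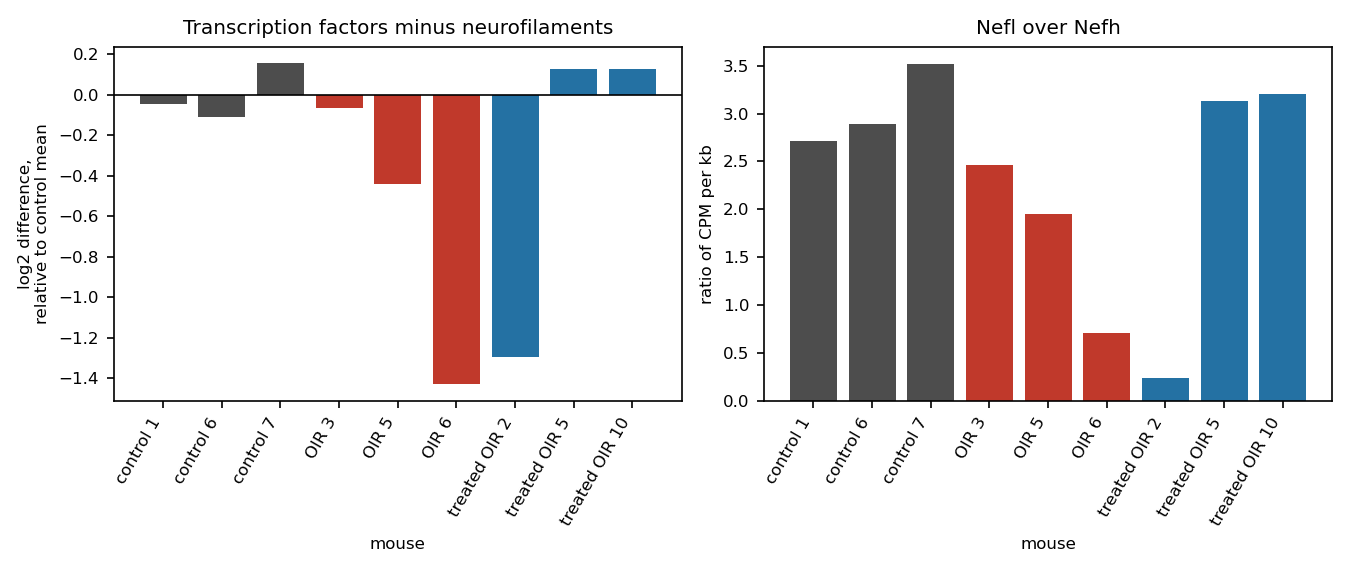
Left, mean log2 CPM of Pou4f1, Pou4f2, Pou4f3 and Isl2 minus that of Nefl, Nefm and Nefh in each mouse, relative to the control mean; right, ratio of Nefl to Nefh in CPM per kb; bars are single mice, gray for controls, red for OIR and blue for treated OIR. OIR 6 and treated OIR 2 stand lowest in both plots, at -1.43 and -1.29 on the left and 0.709 and 0.237 on the right.

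Tested across all genes, the lower levels of the markers in OIR than in control mice did not pass the threshold when all 9 mice shared 1 estimate of the spread. The fitted log2 fold changes were -2.38 (SE 1.11) for Pou4f1, -2.22 (1.06) for Pou4f2, -2.11 (1.09) for Pou4f3 and -1.72 (0.68) for Isl2. They were -1.36 (0.57) for Rbpms, -1.86 (0.95) for Sncg and -1.88 (1.10) for Slc17a6, and -2.09 (1.01) for Nefl, -1.74 (0.74) for Nefm and -1.41 (0.33) for Nefh. Adjusted p in edgeR's quasi-likelihood test with Benjamini-Hochberg adjustment ran from 0.0656 (Nefh) to 0.331 (Slc17a6), so 0 of 10 were called, where 0.941% of all genes tested were. At an unadjusted p below 0.05, 4 of 10 were lower (Isl2, Rbpms, Nefm and Nefh), against 12.7% of all genes, and all 10 had OIR mice wholly below the controls, against 17.2% of all genes. The median log2 fold change was -1.87 over the 10 genes and 0.03 over all 17540.

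The count of calls turned on treated OIR 2, a library that is in neither of the groups compared but enters the shared spread. Without it, 8 of 10 markers were called lower in OIR than in control mice (12.5% of the 18116 genes tested), with folds that hardly moved and smaller errors. Pou4f1 was at -2.40 (SE 0.59, adjusted p = 0.0278), Rbpms at -1.38 (SE 0.29, adjusted p = 0.0159) and Nefh at -1.43 (SE 0.21, adjusted p = 0.00581) in the same edgeR test. Pou4f3 (adjusted p = 0.0987) and Slc17a6 (adjusted p = 0.072) were not called in edgeR. With the OIR and control mice fitted alone, edgeR called 4 of 10 (10.3% of all genes) and DESeq2 7 (15.5%). With all 9 mice, DESeq2 called 2 (11.6% of all genes) and limma voom 1 (13.1%), both near the share of all genes.

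**Figure D4:**
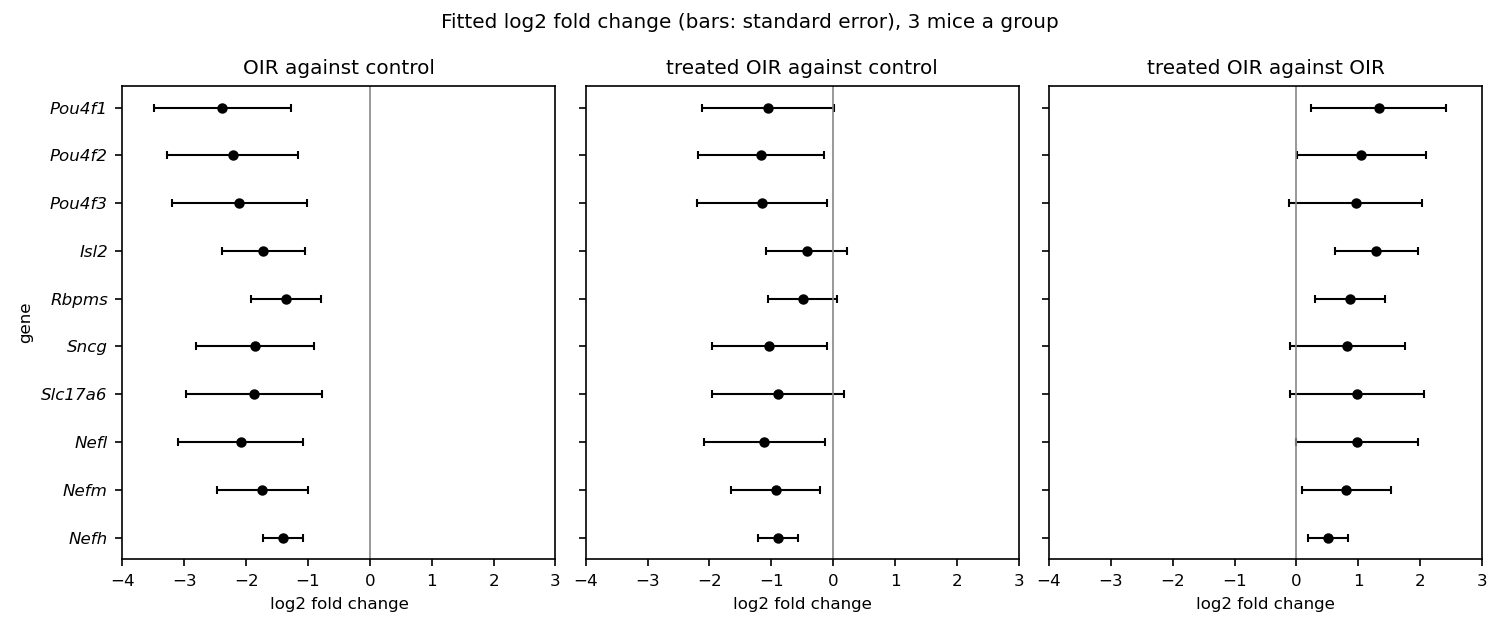
Log2 fold change fitted by edgeR for each of the 10 genes, 1 panel per comparison of 3 mice against 3, with bars for the standard error and a gray line at no change. OIR against control lies from -2.38 to -1.36, treated OIR against control from -1.17 to -0.43, and treated OIR against OIR from 0.51 to 1.33 with wide errors.

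Treated OIR mice against controls gave smaller negative values. Fitted log2 fold changes lay between -0.43 (SE 0.65) for Isl2 and -1.17 (SE 1.02) for Pou4f2, with a median of -0.98 over the 10 genes and 0.01 over all genes. edgeR called 0 of 10, where it called 0.0228% of all genes, and Nefh alone passed an unadjusted p below 0.05 (-0.89, SE 0.32, adjusted p = 0.212 in edgeR), against 8.60% of all genes that passed in this direction. DESeq2 and limma voom on all 9 mice also called 0, where they called 4.22% and 5.28% of all genes. For 7 of 10 genes the 3 treated mice were wholly below the controls, against 12.2% of all genes. Without treated OIR 2 the values shrank to between -0.59 (Pou4f2 and Nefh) and 0.07 (Isl2, SE 0.43).

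Treated OIR mice against OIR mice gave positive values with errors of about their own size. Fitted log2 fold changes ran from 0.51 (SE 0.32) for Nefh to 1.33 (SE 1.09) for Pou4f1, every adjusted p was 1 in edgeR, and the groups overlapped for all 10 genes. edgeR called 0 of 10, as it called 0% of all genes, and DESeq2 and limma voom on all 9 mice also called 0, where they called 0.217% and 0.0057% of all genes. At an unadjusted p below 0.05, 0 passed in edgeR, against 2.39% of all genes that did so upwards. Without treated OIR 2 the values rose to between 0.83 (Nefh, SE 0.23) and 1.93 (Pou4f1, SE 0.62). Then 9 of 10 passed the unadjusted threshold, all but Pou4f3, against 8.35% of all genes, treated mice were wholly above OIR mice for 10 of 10 against 18.1% of all genes, and still none was called, the lowest adjusted p in edgeR being 0.19 (Isl2 and Rbpms). Within sexes, the median log2 difference over the 10 genes was -1.68 among females, where treated OIR 2 and 5 faced OIR 3. It was 2.40 among males, where treated OIR 10 faced OIR 5 and 6. The female value averages treated OIR 2, far below OIR 3, with treated OIR 5, which was above OIR 3 for 10 of 10 genes. OIR against control was negative for 10 of 10 genes in both sexes, with a median of -0.87 in females (1 mouse against 1) and -2.96 in males (2 against 2). These values have no test, and sex and single mice cannot be told apart here.

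Other transcription factors of ganglion cells moved less evenly than the POU4 genes. Of 15 tested in this list, 11 had negative values in OIR against control mice, the median log2 fold change was -0.49, and edgeR called 0, with 5 lower and 1 higher at an unadjusted p below 0.05 (DESeq2 called 3 lower and 1 higher). Ebf3 (-2.53, SE 0.82), Tbr1 (-1.79, SE 0.58) and Ebf1 (-1.72, SE 0.62) were among those with the largest values, with adjusted p from 0.118 to 0.146 in edgeR. Ebf1 and Ebf3, factors of the early B-cell factor family, and Tbr1, a T-box factor of some ganglion cell types, are all used to tell ganglion cell types apart. Ebf3 was at 33.8, 45.4 and 47.3 CPM in the controls, 14.5, 6.29 and 1.13 CPM in the OIR mice, and 6.28, 22.1 and 40.6 CPM in the treated mice. Without treated OIR 2, 7 were called lower and 1 higher. Atoh7, the factor that starts the lineage in the embryo, did not pass the filter. Over all genes in OIR against control mice, 12.7% were lower and 11.1% higher at an unadjusted p below 0.05. Of all genes, edgeR called 0.941%, or 12.5% without treated OIR 2, and DESeq2 called 11.6%. The lists that follow are set against the same shares.

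Other genes of the neuronal cytoskeleton and axon were mostly lower in OIR mice. Of 15 tested, 13 had negative values in OIR against control mice with a median of -1.37, 10 were lower at an unadjusted p below 0.05, and 1 was called, Uchl1, a ubiquitin hydrolase abundant in neurons (-1.41, SE 0.18, adjusted p = 0.038 in edgeR). Uchl1 was at 305, 295 and 374 CPM in the controls, 151, 112 and 104 CPM in the OIR mice, and 195, 261 and 219 CPM in the treated mice. Its OIR mice lay closer together than those of any member, and treated OIR 2 was above all of them. The 2 positive values were those of Prph, peripherin, at 0.51 (SE 0.49) and Map1b, a microtubule-associated protein, at 0.11 (SE 0.12). Without treated OIR 2, 12 of the 15 were called lower.

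Genes of ganglion cell types and physiology had a median of -1.47 over 15 tested, 12 of them negative, with 7 lower at an unadjusted p below 0.05 and 0 called by edgeR (6 lower in DESeq2). Kcnip4, a potassium channel subunit (-1.69, SE 0.42, adjusted p = 0.0747 in edgeR), Adcyap1, the neuropeptide PACAP (-1.85, SE 0.71) and Scn1a, a voltage-gated sodium channel (-1.89, SE 0.87), were among the 4 largest. Spp1, osteopontin, was the other (-1.89, SE 1.58), and its value rests on control 1, at 1675 CPM against 24.5 and 48.4 CPM in the other controls. Without treated OIR 2, 8 of the 15 were called lower.

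Axon injury genes did not follow the markers downward. Over 11 tested the median log2 fold change in OIR against control mice was 0.47, 3 were negative, edgeR called 0 and 1 was lower at an unadjusted p below 0.05 (DESeq2 called 1 lower, Stmn4). Atf3, a stress-induced transcription factor, was at 19.5, 7.83 and 6.96 CPM in the controls, 18.5, 25.8 and 41.3 CPM in OIR 3, 5 and 6, and 45.5, 11.9 and 8.27 CPM in treated OIR 2, 5 and 10. Its value was 1.31 (SE 0.66, adjusted p = 0.259 in edgeR), and OIR 3 overlapped the controls. Atf3 was thus highest in the 2 mice with the least of the ganglion cell markers. Sprr1a (1.28, SE 1.48) and Ecel1 (1.01, SE 0.76), both induced by nerve injury, had larger errors, and Stmn4, a stathmin of neurons, had a negative value (-0.97, SE 0.20, adjusted p = 0.0576 in edgeR). Stmn4 was the 1 gene of the list called, lower, without treated OIR 2. Each of these counts of 1 among 11 is near the share of all genes given above.

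Of the other cell types of the retina, amacrine cells moved with the ganglion cell markers. All 9 amacrine genes were lower in every OIR mouse than in every control, with a median log2 fold change of -1.46, 7 at an unadjusted p below 0.05 and 0 called by edgeR (8 without treated OIR 2, 7 in DESeq2). Of all genes, 17.2% were separated in this way and 12.7% were lower at that unadjusted p. Without treated OIR 2, 12.5% of all genes were called, and 11.6% in DESeq2. The summed level of the amacrine genes was 379 to 598 CPM in OIR mice, 310 to 972 CPM in treated mice and 959 to 1234 CPM in controls. Chat, which marks starburst amacrine cells, was at 9.39, 12.7 and 15.5 CPM in the controls and at 0.0535, 0.187 and 0.180 CPM in the OIR mice, and at 0.508, 0.184 and 12.4 CPM in the treated mice. Relative to the control mean, the amacrine mean was -1.59, -1.72 and -2.28 log2 units in OIR 3, 5 and 6, where that of the ganglion cell transcription factors was -1.17, -2.18 and -4.43. The medians over the amacrine genes, which Chat weighs on less, were -1.17, -1.40 and -1.90 in these mice, and in OIR 3 the median of the transcription factors was -1.15. In treated OIR 5 the amacrine median was -0.80 and that of the transcription factors -0.58.

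Mean levels of rod and horizontal cell markers stayed within 0.35 log2 units of the control mean in each OIR mouse, and those of cones within 0.60. The horizontal cell mean joined opposite values. Gja10 (0.95, SE 0.31) and Onecut1 (0.67, SE 0.32) were wholly above the controls, Tfap2b (-0.65, SE 0.45) was wholly below, and the others overlapped. Gja10 was not called by edgeR on all 9 mice, but was called higher by DESeq2 and without treated OIR 2. Bipolar cell markers summed to 1710 to 1797 CPM in OIR mice, wholly above the 1268 to 1474 CPM of the controls, and of the 8 genes Otx2 was called higher (0.49, SE 0.09, adjusted p = 0.0485 in edgeR). Of 6 Müller glia genes Slc1a3 was called higher (0.95, SE 0.16, adjusted p = 0.0447 in edgeR), and of 5 endothelial genes Kdr (1.10, SE 0.17, adjusted p = 0.0407 in edgeR). Endothelial means were 0.75, 0.11 and -0.66 log2 units from the control mean in OIR 3, 5 and 6, the order of the ganglion cell markers. The rod, cone, horizontal cell and amacrine means fell in the same order, so it is not particular to endothelium. Microglial means were -0.12, 0.20 and 0.51, and pigment epithelium means -0.53, -0.07 and -0.82, with 0 of 5 genes called by edgeR in either list, 1 lower and 1 higher among the microglial genes and 1 lower among the others at an unadjusted p below 0.05, and 1 lower in each by DESeq2. Counts of 1 among 5 are not far from the shares of all genes and say nothing about these lists. The part of these cell types in the values of the markers was not tested. The mean of the 3 astrocyte genes was 0.22, 0.93 and 1.21 log2 units above the control mean in OIR 3, 5 and 6. That is the reverse order of the ganglion cell markers, which the microglial and axon injury means had too. Gfap, the glial filament gene, was at 231, 316 and 703 CPM in these mice against 58.2 to 217 CPM in controls. The medians over the astrocyte genes were 0.10, 1.33 and 0.86, which do not keep the reverse order. In treated OIR 2, which had few of the markers, the astrocyte mean was 0.11, but Gfap alone was at 398 CPM, above all controls. Oligodendrocyte genes of the optic nerve summed to between 31.2 and 41.6 CPM in all 9 mice, with Mog and Mobp too low to test. The 8 lens genes were far above the other mice in treated OIR 2 alone (10.07 log2 units above the control mean) and at -0.96 in OIR 6, which had member levels nearly as low. Leaving the crystallin genes out of the counts left the number of called markers at 0 in all 3 comparisons. That setting called 0.832% of all genes in OIR against control mice. It called no gene at all in the comparisons of treated mice, so a 0 there says nothing about the markers. The part of lens tissue in the low values of treated OIR 2 was not tested.

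**Figure D5:**
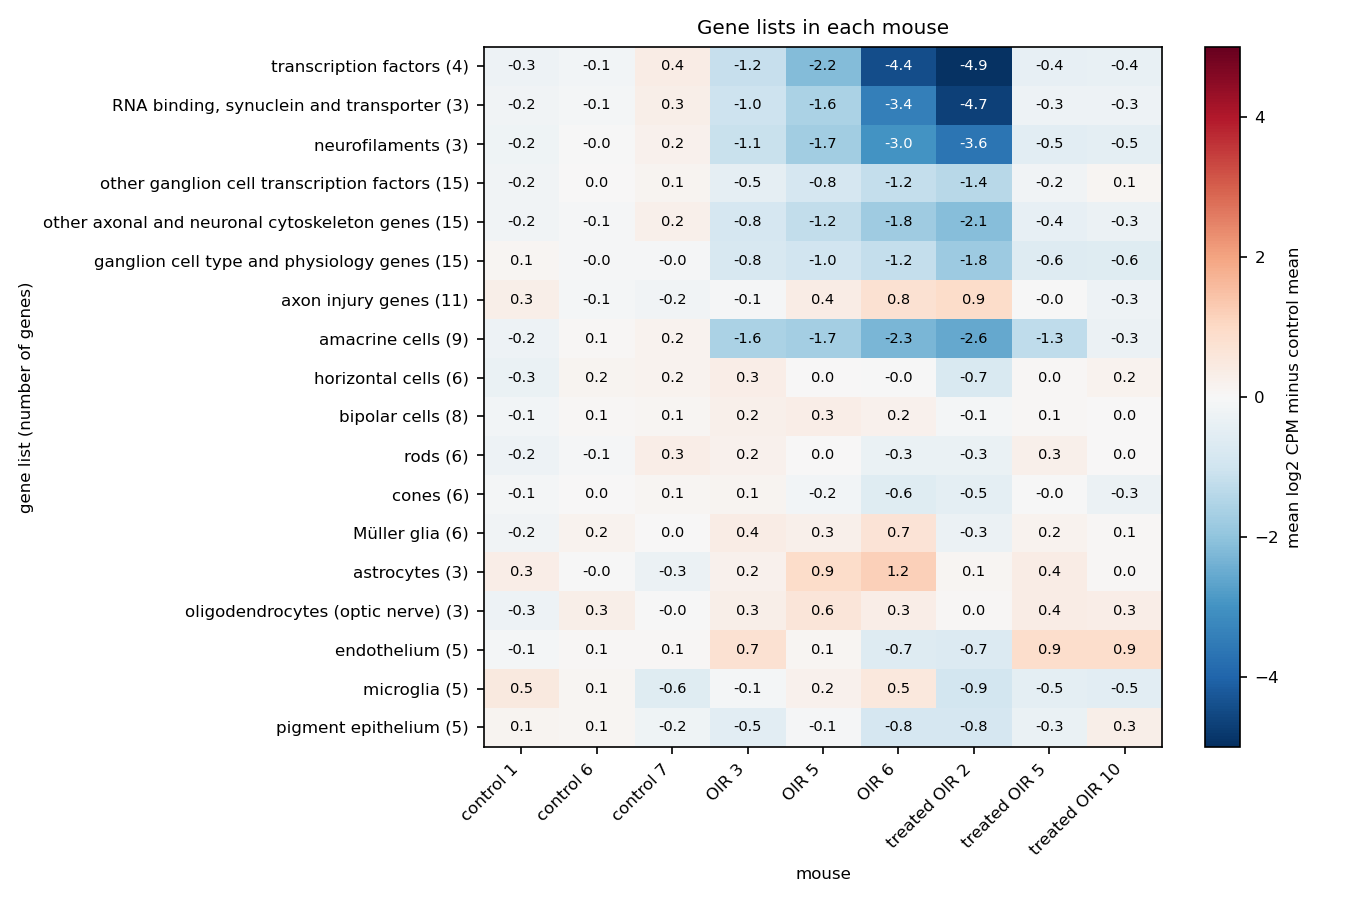
Mean log2 CPM of each gene list minus its control mean, in each of the 9 mice, with the number of genes tested in parentheses; blue is below and red above the control mean, and the value is printed in each cell (lens genes are not drawn). The ganglion cell lists and the amacrine list are blue in the 3 OIR mice and in treated OIR 2, and the lists of bipolar cells, rods and horizontal cells lie within 0.35 of the control mean in the OIR mice.

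Across all 9 mice and 13968 genes with enough signal, the genes nearest in pattern to the mean of the 4 transcription factors were Htr1d, Scn1a, Cpne4, Kcnc4 and Vwa5b2, with a root mean square difference of 0.26 to 0.37 log2 units. Htr1d is a serotonin receptor and Kcnc4 a potassium channel subunit, and their log2 fold changes in OIR against control mice were -2.28 (SE 0.97) and -2.26 (SE 0.87). Nearest to the mean of the 3 neurofilaments were L1cam, Scn2b, Kcnk9, Tmem151b and Ccdc184, with differences of 0.13 to 0.17. L1cam is an axonal adhesion molecule (-1.67, SE 0.70) and Scn2b a sodium channel subunit (-1.76, SE 0.65). The likeness is a description over these 9 mice.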

How the data were processed

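Total RNA was isolated from the retina of each mouse with a miRNeasy kit and sequenced as Illumina libraries, per the labels. The authors deposited a table of raw gene counts for all 9 mice, with gene coordinates and lengths. The submitters' processing notes list CASAVA and HISAT without versions; the counting tool, its strand setting and the build are not given in the sources used here. Of 54532 gene IDs, 54495 were in GENCODE M21, 53548 at the same position (98.3%), which sets the coordinates as GRCm38. Every count column belonged to a labelled mouse, no 2 mice had identical counts, and the labels give 1 mouse per library.

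Counts were filtered with filterByExpr, scaled by TMM and tested with the quasi-likelihood test of edgeR 4.0.16 (R 4.3.3), with all 9 mice sharing 1 estimate of the spread per gene and a Benjamini-Hochberg adjusted p below 0.05 as the call. The script was tested on simulated data. SE is the log2 fold change divided by the square root of the F statistic. The fitted folds compare mean counts, so mice with high counts weigh more than in a mean of log2 values. Log2 CPM used a prior count of 2. Crystallin shares have Wilson intervals, 15.76 to 15.79% in treated OIR 2, and counts of 12 or fewer exact Poisson intervals, at 95% and for counting error only. DESeq2 1.42.0, limma 3.58.1, other scalings and filters, 2 covariates and leaving out each mouse were alternatives. Giving the list counts and the overlap of groups without treated OIR 2 was chosen after seeing the data. Promoter sequences were taken from RefSeq. Rbpms, Nefl, Nefm and Nefh had no entry, and sequences of chromosome 18, where Pou4f3 lies, were not used. The members and lists were chosen with earlier results of these data known. Of each further list, genes called in any comparison were named, or else the 4 with the largest fold change in OIR against control mice, and the 5 genes nearest to each of 2 member patterns; 1 gene that this rule names is not reported here. Chat, Gfap, Prph, Map1b, Otx2, Slc1a3, Kdr, Gja10, Onecut1 and Tfap2b were named after their values were seen, with the lens genes.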

Additional observations from a re-analysis of the deposited data

How the results depend on the processing

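In OIR against control mice, 0 of 10 markers were called with edgeR on all 9 mice. The count was 2 with DESeq2 on all 9 mice, 7 with DESeq2 and 4 with edgeR on the 2 groups alone, and 1 each with limma voom, without a filter, and with a lens score as a covariate, and it ranged from 0 to 8 when 1 mouse was left out, 8 being without treated OIR 2. Over all genes these settings called 1805, 2568, 1771, 2305, 532, 755 and 2272. It stayed at 0 with upper-quartile scaling, total counts alone, crystallin genes left out, at least 10 counts in every mouse (7 markers left) and sex as a covariate, which called 230, 37, 146, 376 and 0 of all genes. Of the 8 other mice left out, 7 left no gene called at all, so a 0 there says nothing about the markers. Each log2 fold change stayed negative in this comparison wherever it was fitted, under 20 alternatives for 7 markers and 19 for the POU4 genes, which the filter on 10 counts removes. The cause was not tested, except that leaving out treated OIR 2 lowers the shared spread. In treated OIR against control and against OIR mice no marker was called under any of the 20. Against OIR mice most of these settings called no gene at all, and the largest number called was 77. Against controls many called none. Where no gene was called, a 0 says nothing about the markers.

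The log2 fold change of Isl2 in treated OIR against control mice was -0.43 and turned to 0.0233 with limma voom and to 0.0658 without treated OIR 2, ranging from -0.8013 to 0.0658 when 1 mouse was left out. The difference between transcription factors and neurofilaments ranged from -0.94 to -0.25 in OIR against control mice when 1 mouse was left out, from -0.58 to 0.13 in treated OIR against control, and from -0.09 to 0.77 in treated OIR against OIR. It reversed to 0.127 without treated OIR 2 and to -0.093 without OIR 6, and under the 7 other settings kept its direction in all 3 comparisons.

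No paired analysis was possible because the labels do not link mice of different groups. With 3 mice a group, the spread between mice, not depth, limits these values, apart from markers at few reads in OIR 6 and treated OIR 2 (the POU4 genes at 3 to 57 reads, Slc17a6 at 16 in treated OIR 2, Isl2 at 32 and 25).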
